A study of Homo sapiens with 6 samples.

Results

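The mRNA levels of 10 integrin subunits were compared in PANC-1 cells, an established human pancreatic ductal adenocarcinoma line, after knockdown of CD73. The genes were ITGA2, ITGA3, ITGA5, ITGA6, ITGAV, ITGB1, ITGB4, ITGB5, ITGB6 and ITGB8. They were chosen by name, with earlier results of these data known. All 10 were found by Ensembl ID among the 30735 genes measured by RNA-seq. Cells kept in DMEM medium with fetal bovine serum had been transfected, with a Lipofectamine reagent, with CD73 siRNA (3 samples) or with a negative control siRNA (3 samples), and both groups carried a replicate number from 1 to 3. The CD73 siRNA was ordered as a single product, so every sample rests on 1 cell line and 1 siRNA reagent. The labels do not say that replicates came from separate cultures, while the study describes separate knockdown experiments, and p-values measure the spread between these samples.

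Integrins are cell surface receptors made of an α chain and a β chain, which together bind proteins of the extracellular matrix and connect them to the actin cytoskeleton or, for the chain encoded by ITGB4, to keratin filaments in hemidesmosomes. The α chain largely sets the ligand. The product of ITGA2 binds collagen, those of ITGA3 and ITGA6 bind laminin, that of ITGA5 binds fibronectin, and that of ITGAV binds vitronectin, latent TGF-β and other proteins that carry an RGD motif. The product of ITGB1 pairs with all 5 of these α chains, that of ITGB4 pairs with the product of ITGA6, and those of ITGB5, ITGB6 and ITGB8 pair with the product of ITGAV. In pancreatic cancer these receptors hold tumor cells to a collagen-rich stroma and to basement membrane laminin.

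The values were read as RPKM (read counts divided by exon length and by library size), a unit inferred from them and not stated in the sources. The length that matched was that of all merged exons of a gene. For ITGB1 it was 6011 bases, against 3640 for a transcript, so levels of different genes compare only roughly. Library totals worked out from the values ranged from 15009113 to 16836207 reads. Apart from ITGB6, each member was covered by between 355 and 17021 reads in every sample. The mRNA of NT5E, the gene encoding CD73, was 3.36, 6.85 and 8.22 RPKM in the CD73 siRNA samples 1, 2 and 3 and 14.0, 13.9 and 17.1 RPKM in the negative controls. The groups did not overlap, and the knockdown mean was 41.0% of the control mean. Epithelial keratins were detected in every sample (KRT8 from 30.0 to 158 RPKM, KRT18 from 36.3 to 87.0 RPKM), whereas KRT7, a keratin of ductal cells, was at most 0.107 RPKM. The summed level of the 5 epithelial markers ranged from 71.0 to 101 RPKM in the CD73 siRNA samples and from 134 to 252 RPKM in the controls. This sum was mostly KRT8 and KRT18, since KRT19 ranged from 3.59 to 5.39 RPKM and EPCAM from 0.582 to 1.71 RPKM. None of the 5 was at 0 in any sample. Summed leukocyte and endothelial markers stayed at or below 0.269 and 0.0856 RPKM. The fibroblast markers summed to between 9.01 and 19.2 RPKM, nearly all of it COL1A1.

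Among the members, ITGA2 carried the strongest difference and ITGB1 shared sequence with a second locus, so these 2 sequences are shown. ITGA2 (ENSG00000164171) lies on the plus strand at chr5:52989326-53094779 of GRCh38. The bases just before its first annotated exon base, chr5:52989102-52989325 on the plus strand, were taken from RefSeq (GRCh38.p14) and are printed below, with capitals marking the GC box GGGCGG, the core of Sp1-type binding sites, found on either strand.
ITGA2 upstream: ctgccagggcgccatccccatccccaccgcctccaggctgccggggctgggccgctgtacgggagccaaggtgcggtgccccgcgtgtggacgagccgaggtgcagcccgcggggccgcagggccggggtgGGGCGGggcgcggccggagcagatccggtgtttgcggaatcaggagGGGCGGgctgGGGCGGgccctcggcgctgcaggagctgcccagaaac
This stretch of 224 bases held 3 GC boxes and was 77.2% G or C. Counted over the full window of 250 bases before the RefSeq start, ITGA2 had 4. The highest count in a window was 3 for ITGA6, ITGB1 and ITGB5 and 2 for ITGB8, while ITGAV and ITGB6 had none. At least 1 GC box was found in 42.6% of 35116 promoter windows of that length, and at least 4 in 7.63%. The cut of 4 was taken from the ITGA2 count itself, and the windows were not matched for G and C content. These shares therefore do not show that the ITGA2 window is unusual. The AP-1 motif TGANTCA (in 6.57% of all windows), the TEAD motif GGAATG (11.9%), the ETS motif CCGGAA (14.5%) and the NF-kB motif (9.96%) were not matched in the ITGA2 window. Windows were found for 8 of the 10 members, 13 in all, and none of the 13 matched the AP-1 motif. The ITGA5 window held 1 GC box, 1 TEAD match and 1 NF-kB match, the last 2 overlapping, whereas the first ITGAV window held none of the 5 motifs. Such matches describe letters in a window and not occupied sites. ITGA3 and ITGB4 had no window in the table used.

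ITGB1 (ENSG00000150093; chr10:32900319-33005792, minus strand) shares coding sequence with the processed pseudogene ITGB1P1 (chr19:14621634-14622242, minus strand). All 609 bases of ITGB1P1 were identical to a spliced run of exons 13 to 16 of an ITGB1 transcript. The 90 bases around the junction of exons 13 and 14, as they stand in the pseudogene at chr19:14622052-14622141, read as follows, with capitals on the last base of exon 13 and the first base of exon 14.
ITGB1P1 stretch: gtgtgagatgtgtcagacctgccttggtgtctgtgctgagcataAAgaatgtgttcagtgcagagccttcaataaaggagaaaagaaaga
A read from within a single exon of this run matches both loci without a mismatch. A read over a junction matches the pseudogene in one piece but the ITGB1 locus only when spliced. Of 560 windows of 50 bases along the run, 147 (26.2%) crossed a junction. ITGB1P1 itself was listed at 58.5, 60.3 and 55.9 RPKM in the CD73 siRNA samples and at 40.1, 58.1 and 56.5 RPKM in the negative controls, worth between 392 and 578 reads. How reads that match both loci were counted is not given in the sources used here, so the part of the ITGB1 level from this run is uncertain. The run covers 609 of the 3640 bases of that transcript, and reads that lie outside it do not match ITGB1P1. ITGB1 itself was covered by between 11097 and 17021 reads per sample.

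Before any comparison, the subunits differed widely in level. In the negative controls the order of mean RPKM was ITGB1 (139), ITGA6 (73.5), ITGB5 (46.6), ITGAV (38.5), ITGA5 (22.6), ITGA2 (19.2), ITGA3 (11.6), ITGB4 (5.04), ITGB8 (1.84) and ITGB6 (0.0068). The sample ranges of the neighbours ITGB5 and ITGAV, ITGA5 and ITGA2, and ITGA2 and ITGA3 overlapped, and all other neighbours were separated in every control sample. In CD73 siRNA samples ITGA3 stood above ITGA2 (mean 10.0 against 7.20 RPKM), with overlapping ranges, and the other members kept their order.

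**Figure D1:**
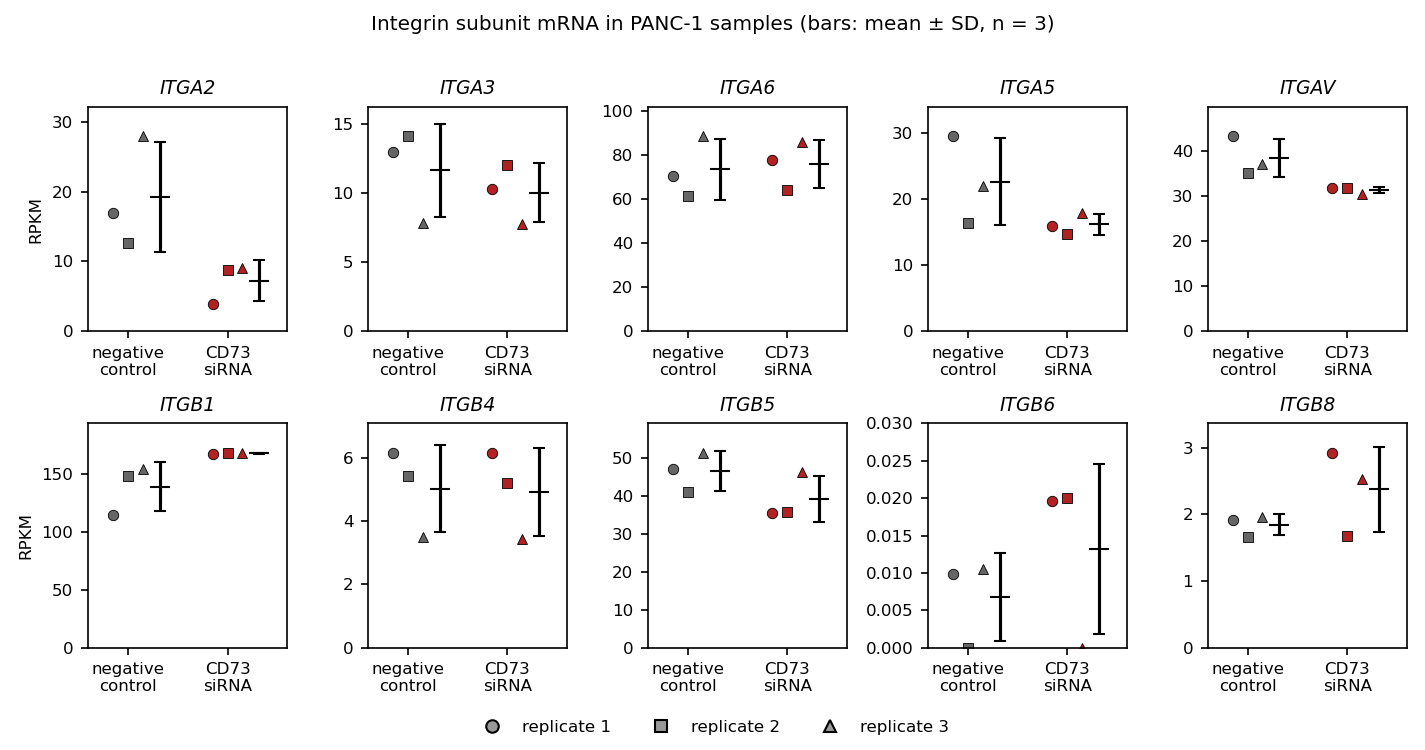
RPKM of each of the 10 integrin subunits (y axis, from 0, with its own scale per panel) in negative control (grey) and CD73 siRNA (red) samples, with marker shape for the replicate number and a bar for mean ± SD (n = 3). ITGA2 and ITGAV were lower and ITGB1 was higher in every CD73 siRNA sample than in any control, and the other panels overlap.

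ITGA2, the α chain of the collagen receptor α2β1, was the member with the largest difference. It measured 3.81, 8.70 and 9.09 RPKM in CD73 siRNA replicates 1, 2 and 3, whereas the negative controls gave 16.9, 12.7 and 28.0 RPKM. Every knockdown sample lay below every control, although samples of one group differed by more than 2-fold. The mean fell from 19.2 ± 7.90 to 7.20 ± 2.94 RPKM (SD, n = 3), which is 37.5% of the control. The log2 fold change on the log2(RPKM + 1) scale was -1.31 (SE 0.34, 95% interval -2.10 to -0.51, limma unadjusted p = 0.0052). It was past the unadjusted threshold of 0.01, which 3.13% of the 12527 tested genes passed, but not past adjustment over those genes (limma adjusted p = 0.30). Blocking on the replicate number gave a limma p of 0.0013 and the adjusted p 0.11. Without negative control replicate 3, the highest sample, the change was -1.01 (limma unadjusted p = 0.016), and without CD73 siRNA replicate 1, the lowest, it was -0.96 (limma unadjusted p = 0.014). The summed epithelial markers were lower in the same samples, and their part in this difference was not tested.

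ITGA2 followed the target gene in rank but not exactly in size within replicate numbers. The difference between samples of the same number was -1.90, -0.50 and -1.52 log2 units for ITGA2 and -1.78, -0.92 and -0.98 log2 units for NT5E in replicates 1, 2 and 3. For both genes replicate 1 showed the largest fall and replicate 2 the smallest. Over the 6 samples, the Pearson r between log2 values of ITGA2 and NT5E was 0.96, which placed NT5E at rank 26 of 7393 genes with a mean of at least 5 RPKM. These 6 points include the difference between the groups, so r is a description only. The 5 genes most like ITGA2 were WDR36, a ribosome biogenesis factor (r = 0.996), the gene listed as ENSG00000266578 (0.994), CDC25C, a phosphatase of mitotic entry (0.991), the pseudogene RPL14P1 (0.985) and LEMD3, an inner nuclear membrane protein (0.982). WDR36 went from 13.2 ± 1.37 RPKM in controls to 10.0 ± 1.05 RPKM in CD73 siRNA samples, a much narrower range than that of ITGA2.

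The laminin receptor α chains gave no difference beyond the replicate spread. ITGA6, whose product forms α6β1 and the hemidesmosomal α6β4, was the most abundant α chain gene, at 77.8, 64.2 and 86.0 RPKM in CD73 siRNA samples and 70.4, 61.5 and 88.6 RPKM in controls. The groups overlapped, and replicate numbers ranked the samples alike in both, with replicate 2 lowest and replicate 3 highest. Its log2 fold change was 0.05 (SE 0.16, 95% interval -0.31 to 0.42, limma adjusted p = 0.92). ITGA3, whose product forms α3β1, measured 10.3, 12.0 and 7.74 RPKM against 13.0, 14.1 and 7.81 RPKM. Here replicate 3 was the lowest of each group, the reverse of ITGA6. The ITGA3 log2 fold change was -0.18 (SE 0.23, limma adjusted p = 0.78), with an interval from -0.70 to 0.35 that leaves room for differences of either sign. It ran from -0.02 without CD73 siRNA replicate 3 to -0.42 without negative control replicate 3 (limma unadjusted p = 0.052 for the latter).

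ITGB4, the β chain that pairs with the ITGA6 product in hemidesmosomes, was nearly equal between samples of the same number. It measured 6.16, 5.22 and 3.43 RPKM in CD73 siRNA samples and 6.17, 5.44 and 3.50 RPKM in controls. Replicates differed by far more than groups did, and the log2 fold change was -0.03 (SE 0.23, limma adjusted p = 0.97). The ratio of ITGA6 to ITGB4 RPKM was 12.6, 12.3 and 25.1 in knockdown samples and 11.4, 11.3 and 25.3 in controls, so the 2 samples of replicate 3 had the highest ratios, while samples of the same number differed by less.

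Both α chains of fibronectin and RGD receptors were lower on average. ITGAV measured 31.6, 31.6 and 30.4 RPKM in CD73 siRNA samples and 43.2, 35.1 and 37.0 RPKM in controls. The groups did not overlap, and the knockdown samples lay unusually close together (31.2 ± 0.70 against 38.5 ± 4.23 RPKM, SD, n = 3). The log2 fold change of ITGAV was -0.29 (SE 0.11, 95% interval -0.53 to -0.04, limma unadjusted p = 0.026, adjusted p = 0.36). Leaving out 1 sample gave from -0.35 to -0.20, with an unadjusted limma p of up to 0.071. ITGA5, the α chain of the classical fibronectin receptor α5β1, measured 15.9, 14.7 and 17.9 RPKM in CD73 siRNA samples and 29.5, 16.3 and 22.0 RPKM in controls. Its groups overlapped at 1 point, where negative control replicate 2 (16.3 RPKM) fell below CD73 siRNA replicate 3. Its log2 fold change was -0.43 (SE 0.20, 95% interval -0.88 to 0.03, limma unadjusted p = 0.061, adjusted p = 0.43). Leaving out negative control replicate 2 gave -0.63 (limma unadjusted p = 0.0044), and leaving out negative control replicate 1 gave -0.22 (limma unadjusted p = 0.20), so the ITGA5 value rested on which control was kept.

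The β chain shared by all of these receptors was higher on average. ITGB1, the most abundant member, measured 167.8, 168.8 and 168.2 RPKM in CD73 siRNA samples and 115.1, 148.3 and 154.6 RPKM in negative controls. Knockdown samples were almost equal and all above the controls, of which replicate 1 was the lowest. The log2 fold change was 0.28 (SE 0.12, 95% interval -0.0025 to 0.57, limma unadjusted p = 0.052, adjusted p = 0.42). Without negative control replicate 1 it was 0.15 (limma unadjusted p = 0.12). With the reads of ITGB1P1 added it was 0.28 again (limma unadjusted p = 0.055). This could hardly move the value, since between 392 and 578 reads were added to between 11097 and 17021 per sample. Nor can it recover reads that were dropped for matching both loci. The ratio of ITGB1P1 to ITGB1 RPKM was 0.346 ± 0.013 in CD73 siRNA samples and 0.368 ± 0.022 in controls.

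Of the β chains that pair with the ITGAV product, ITGB5, a vitronectin receptor chain, made up 94.2 ± 1.65% of the summed RPKM of ITGB5, ITGB6 and ITGB8 in CD73 siRNA samples and 96.2 ± 0.13% in controls. ITGB5 measured 35.6, 35.7 and 46.4 RPKM in CD73 siRNA samples and 47.2, 41.1 and 51.5 RPKM in controls. The groups overlapped, and replicate 3 was the highest sample of each. Its log2 fold change was -0.25 (SE 0.14, 95% interval -0.57 to 0.07, limma adjusted p = 0.50). ITGB8, a chain of the receptor that activates latent TGF-β, measured 2.92, 1.67 and 2.53 RPKM against 1.91, 1.66 and 1.95 RPKM, and its log2 fold change was 0.23 (SE 0.16, limma adjusted p = 0.60). The ITGB8 value was 0.11 without CD73 siRNA replicate 1 and 0.39 without CD73 siRNA replicate 2 (limma unadjusted p = 0.035 for the latter). Replicate 2 of ITGB8 was equal in both groups to within 0.01 log2 units. ITGB6, an epithelial chain that also activates TGF-β, was listed at 0.020, 0.020 and 0 RPKM in CD73 siRNA samples and at 0.0098, 0 and 0.0105 RPKM in controls. Taking the smallest value as a single read, this is at most 2 reads per sample, so ITGB6 mRNA was not measurable at this depth and no fold is given.

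**Figure D2:**
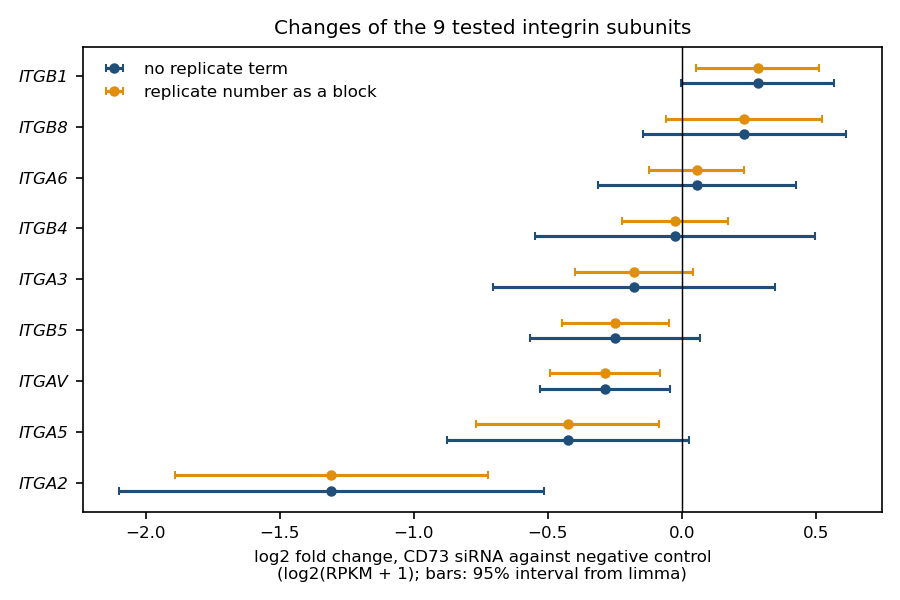
Log2 fold change of CD73 siRNA against negative control for the 9 tested subunits (x axis, log2(RPKM + 1) scale), with points for the limma estimate and bars for its 95% interval, without (blue) and with (orange) the replicate number as a block. Without the block the intervals of ITGA2 and ITGAV lie wholly below 0, and with it those of ITGA5 and ITGB5 do too, while that of ITGB1 lies above 0.

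Counted together, 9 members passed the filter of at least 1 RPKM in at least 3 samples, and ITGB6 did not. At an unadjusted limma p below 0.01, 1 of the 9 was lower (ITGA2) and none was higher, where 1.31% of all tested genes were lower and 1.82% were higher. At p below 0.05, 2 of the 9 were called (ITGA2 and ITGAV), where 12.1% of all tested genes were. None passed a limma adjusted p of 0.05, which 1 gene (0.00798%) of all those tested did. With the replicate block the number of genes past 0.01 moved from 392 to 948 (7.57%), of which ITGA2 was again the only member. At 0.05 with the block, 23.3% of all genes were called, and 5 of the 9 members were, with ITGA2 (limma unadjusted p = 0.0013), ITGAV (0.014), ITGB5 (0.022) and ITGA5 (0.022) lower and ITGB1 (0.023) higher. No member and no other gene passed an adjusted p of 0.05 with the block, and the adjusted limma values of these 5 members ran from 0.11 to 0.16. The median log2 fold change of the 9 members was -0.18, beside 0.0091 for all tested genes.

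Between samples of the same replicate number, 6 members were lower in all 3 numbers (ITGA2, ITGA3, ITGA5, ITGAV, ITGB4 and ITGB5), 2 were higher in all 3 (ITGB1 and ITGB8) and ITGA6 was mixed. Of all tested genes, 24.5% were lower and 27% were higher in all 3 numbers, and 51.4% had the same direction in all 3. For ITGB4 the 3 differences were as small as -0.0029, -0.051 and -0.023 log2 units, so its place among the 6 is one of sign and not of size. The differences of ITGA5 were -0.86, -0.14 and -0.28, those of ITGAV -0.44, -0.15 and -0.27, and those of ITGB5 -0.40, -0.20 and -0.15 log2 units. ITGB1 was higher by 0.54, 0.19 and 0.12 log2 units. Replicate 1 gave the largest difference for every tested member but ITGB4, and it was also the number with the largest difference in NT5E. How often replicate 1 gave the largest difference over all tested genes was not counted, so nothing particular to the members is shown. Without overlap between groups, 2 members were lower (8.07% of all tested genes) and 1 was higher (10.3%), where 18.4% of all tested genes were separated in either direction.

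**Figure D3:**
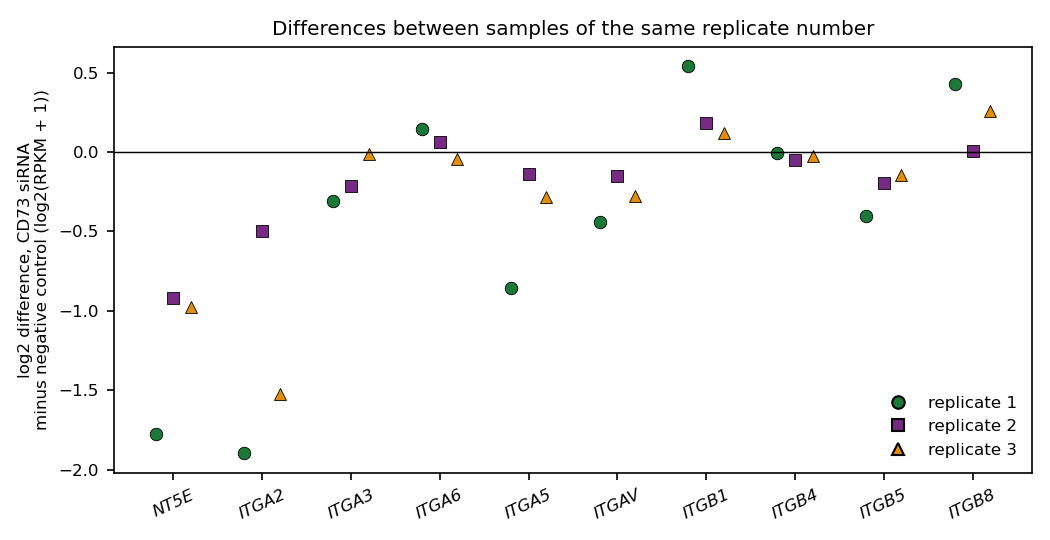
Difference between the CD73 siRNA and the negative control sample of the same replicate number (y axis, log2(RPKM + 1) units) for NT5E and the 9 tested subunits, with 1 point for each of the 3 numbers. Replicate 1 (green circles) lies farthest from 0 for NT5E and for every tested subunit but ITGB4.

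The make-up of the α chain pool was then compared between collagen, laminin and fibronectin or RGD receptors. The summed RPKM of the 5 α chain genes was 141 ± 10.0 in CD73 siRNA samples and 165 ± 22.8 in negative controls (SD, n = 3). ITGA2 made up 2.73%, 6.63% and 6.01% of this sum in knockdown samples 1, 2 and 3 and 9.79%, 9.09% and 15.3% in controls, with no overlap. The laminin receptor chains ITGA3 and ITGA6 together made up 63.2%, 58.1% and 62.0% in knockdown samples and 48.2%, 54.1% and 52.6% in controls, again with no overlap. ITGA6 alone made up 53.9 ± 4.32% in knockdown samples and 44.3 ± 3.83% in controls, and ITGA3 7.22 ± 2.02% and 7.29 ± 2.92%. The shares add up to the whole and so depend on each other, and the RPKM of ITGA6 itself was alike in both groups. The means of ITGA2 (7.20 against 19.2 RPKM), ITGAV (31.2 against 38.5 RPKM) and ITGA5 (16.2 against 22.6 RPKM) were lower in knockdown samples. ITGA3 was at 10.0 against 11.6 RPKM. The higher laminin receptor share thus follows from a lower sum and is no separate result. What lay behind the lower levels was not tested. The fibronectin and RGD receptor chains ITGA5 and ITGAV held 33.8 ± 1.68% and 37.0 ± 4.94%, with overlapping ranges. The ratio of ITGB1 RPKM to the α sum was 1.20, 1.29 and 1.11 in knockdown samples and 0.665, 1.06 and 0.843 in controls.

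**Figure D4:**
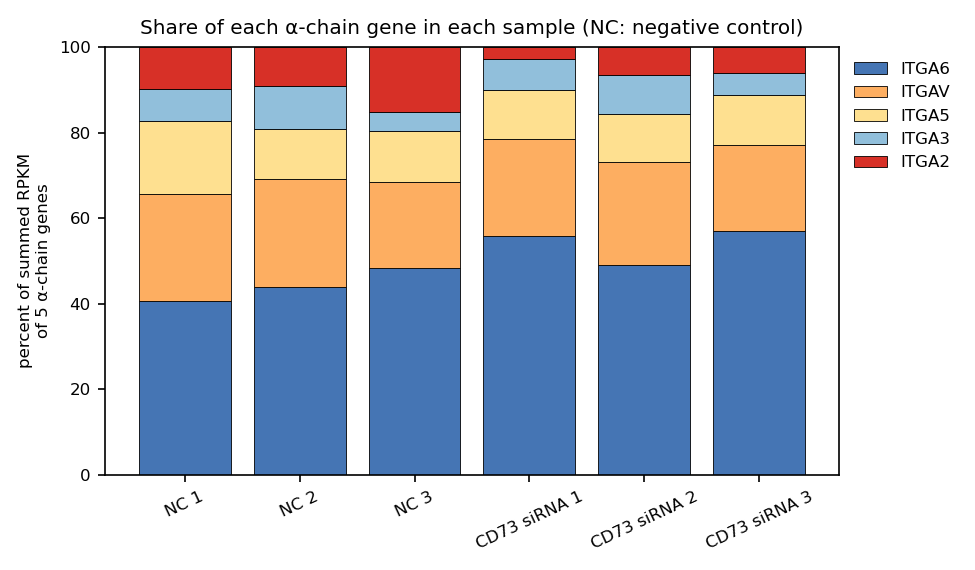
Share of each of 5 α chain genes in their summed RPKM (y axis, percent, from 0) in each of the 6 samples, with 1 stacked bar per sample. The ITGA2 part (red, top) takes from 9.09% to 15.3% in the controls and from 2.73% to 6.63% in the CD73 siRNA samples.

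Whether 2 subunits differed in their response was tested on the log2 ratio of the 2 genes within each sample, for 10 pairs. An exact permutation test of 3 against 3 samples cannot give a two-sided p below 0.1, so no pair could pass 0.05. Against the laminin receptor chain ITGA6, the log2 ratio of ITGA2 was -3.30 ± 0.66 in CD73 siRNA samples and -1.94 ± 0.28 in controls. The difference of -1.36 (95% interval -2.52 to -0.21) reached the smallest exact permutation p of 0.1 (0.2 adjusted over 10 pairs), and the sign was the same in 3 of 3 replicate numbers (-2.04, -0.56 and -1.48). Against its own partner ITGB1, the difference for ITGA2 was -1.59 (interval -2.87 to -0.31, exact p = 0.1). In these 2 pairs the interval lay wholly on one side of 0, but not when samples were paired by replicate number, where it ran from -3.22 to 0.50 for ITGA6 and from -3.77 to 0.59 for ITGB1. Paired in this way, all 10 intervals include 0, and the exact sign-flip p of both pairs was 0.25, the smallest that 3 pairs can give. Against ITGAV the difference was -1.02 (interval -2.35 to 0.31, exact p = 0.1), against ITGA3 it was -1.13 (interval -3.06 to 0.80, exact p = 0.2) and against ITGA5 it was -0.88 (interval -2.18 to 0.42, exact p = 0.2). In these 3 pairs too the ratio was lower in the knockdown sample of every replicate number, yet the intervals include no difference. Without negative control replicate 3 the difference against ITGA3 was -0.59 and that against ITGA5 was -0.58. Without CD73 siRNA replicate 1 the difference was -0.55 against ITGA5 and -0.66 against ITGAV.

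Between fibronectin and laminin receptor chains the ratios were closer. ITGA5 against ITGA6 differed by -0.48 (interval -1.13 to 0.17, exact p = 0.1), with no overlap between groups and the largest part from replicate 1 (-1.0, against -0.20 and -0.24 in replicates 2 and 3). Without negative control replicate 1 it was -0.25. ITGA5 against ITGA3 differed by -0.25 (interval -1.46 to 0.96, exact p = 0.7) and changed sign between replicate numbers. ITGB4 against its partner ITGA6 differed by -0.08 (interval -1.32 to 1.16, exact p = 0.6). ITGB8 against ITGB5 differed by 0.48 (interval -0.04 to 1.0, exact p = 0.1), with no overlap, and by 0.30 without CD73 siRNA replicate 1. The pair of ITGB6 and ITGB5 (0.26, exact p = 0.2) reflects little but ITGB5, since ITGB6 was at 0 or near it. An interval that includes 0 in these pairs does not show that 2 subunits responded alike.

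**Figure D5:**
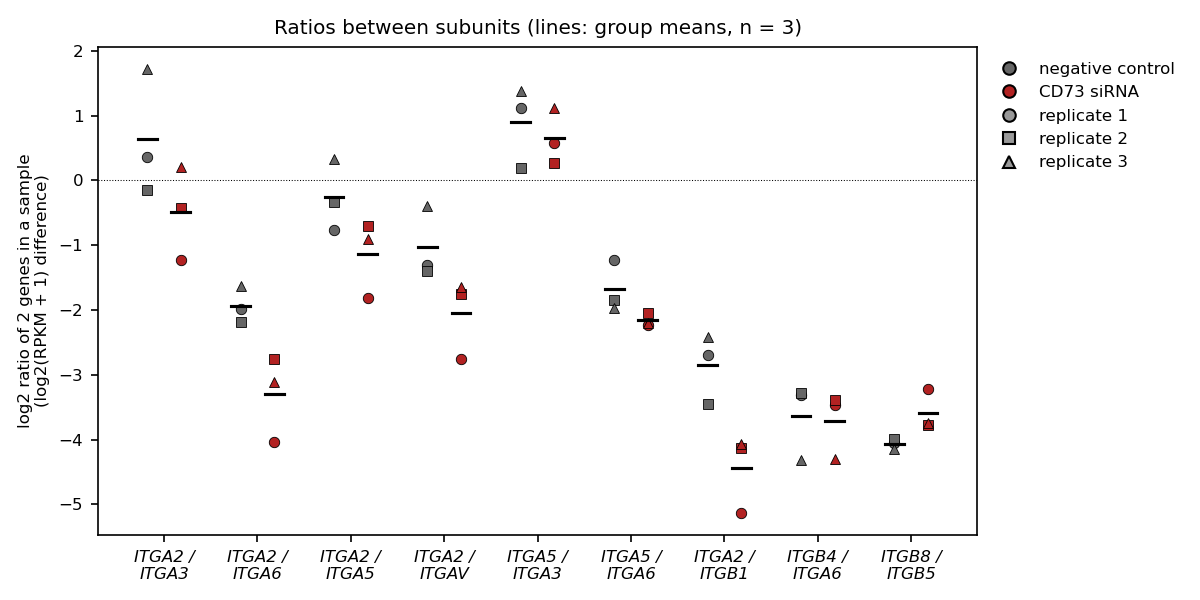
Log2 ratio of 2 subunit genes in each sample (y axis, difference of log2(RPKM + 1) values) for 9 of the 10 pairs, with negative control samples in grey, CD73 siRNA samples in red and a line at each group mean. The groups separate for ITGA2 against ITGA6, ITGAV and ITGB1, for ITGA5 against ITGA6 and for ITGB8 against ITGB5.

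Other integrin subunits were at low levels in these cells. All 16 further subunit genes looked at were in the tables, and 2 passed the filter, ITGAE, the α chain of an E-cadherin receptor (2.51 ± 0.063 against 2.42 ± 0.012 RPKM), and ITGA7, a laminin receptor chain (1.08 ± 0.29 against 1.33 ± 0.32 RPKM). Neither was called. Among the rest, ITGB3, the other well known partner of the ITGAV product, reached at most 1.13 RPKM. ITGA1, the α chain of the other widely expressed collagen receptor, was at most 0.40 RPKM, and ITGA10 and ITGA11, which also bind collagen, were at most 0.874 and 0.0526 RPKM. ITGA2 was thus the most abundant collagen receptor α chain mRNA of the 4 in every sample.

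Genes that work with integrins were counted in 7 lists holding 84 distinct genes, of which 45 passed the filter. At an unadjusted limma p below 0.01, 1 of the 45 was called (2.22%, beside 3.13% of all tested genes). This was TNS3, a tensin that binds the cytoplasmic tail of β chains, and it was higher in every knockdown sample (39.3, 39.2 and 44.6 RPKM against 29.1, 31.8 and 29.1 RPKM). The TNS3 log2 fold change was 0.44 (SE 0.099, limma unadjusted p = 0.0022, adjusted p = 0.30). It was the single call among 20 tested activators and adaptors, whose median was -0.03. With the replicate block 4 of the 45 were called, beside 7.57% of all tested genes, and the 3 added were lower. They were VCL, the talin partner vinculin (64.4 ± 7.17 against 91.3 ± 17.2 RPKM, limma unadjusted p = 0.015 and 0.0046 with the block), PXN, the focal adhesion scaffold paxillin (46.4 ± 12.2 against 70.6 ± 4.65 RPKM, limma unadjusted p = 0.011 and 0.0070 with the block), and PLAUR, the urokinase receptor (1.31 ± 0.16 against 2.50 ± 0.77 RPKM, limma unadjusted p = 0.014 and 0.0053 with the block). These 3 were chosen for naming after their values were seen.

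In the remaining lists no gene was called without the block. The membrane partners (10 tested, median log2 fold change -0.14) included CAV1, the caveolae protein, at 170 ± 28.8 against 189 ± 40.7 RPKM, and BSG, the glycoprotein basigin, at 133 ± 7.82 against 156 ± 22.8 RPKM. Of 6 hemidesmosome genes only the linkers PLEC (64.6 ± 11.8 against 60.5 ± 6.61 RPKM) and DST (17.7 ± 2.27 against 19.8 ± 4.18 RPKM) passed the filter, and the median was -0.03. Among ligands, the collagen list (4 tested, median -0.02) was led by COL6A1 (14.7 ± 1.38 against 14.8 ± 0.32 RPKM) and COL1A1 (11.4 ± 4.10 against 15.8 ± 4.61 RPKM). The laminin list (4 tested, median -0.08) was led by LAMC1 (36.3 ± 4.33 against 38.9 ± 4.57 RPKM) and LAMB2 (30.0 ± 4.49 against 30.4 ± 4.68 RPKM). In the list of RGD and other ligands of the ITGA5 and ITGAV products (3 tested, median 0.14), the genes of highest mean were TGFB1 (13.6 ± 1.49 against 12.2 ± 1.36 RPKM) and TGFB2 (10.4 ± 2.25 against 13.2 ± 1.61 RPKM). FN1, the gene for fibronectin, was below the filter, at 0.472 ± 0.070 against 0.552 ± 0.21 RPKM.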

How the data were processed

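RNA-seq tables of 6 PANC-1 samples, 3 with CD73 siRNA and 3 with negative control, were used. RNA had been purified with the miRNeasy kit. The values were deposited by the authors as 1 table per sample and were read here as RPKM, a unit the sources do not state: multiplied by merged exon length in GENCODE 29, values under 1000 reads were whole multiples of a single step for 95.5% to 95.6% of genes (tolerance 0.05 reads). The submitters' processing notes name bcl2fastq, Bowtie2 2.2.3, HTSeq 0.6.0 and the build hg38, with no further settings. Strandedness and the treatment of reads that match several loci are not given in the sources used here. Symbols were matched for 24436 of 30735 IDs, and 132 had no length.

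The 12527 genes that reached 1 RPKM in 3 or more samples were fitted with limma 3.58.1 in R 4.3.3 on log2(RPKM + 1), with Benjamini-Hochberg adjustment and a fold change that understates that of low genes. The study's threshold of p below 0.01 and an adjusted p of 0.05 were counted. Deviations of same-numbered samples from their group means correlated at 0.20, 0.48 and 0.55, and all other pairs between -0.44 and -0.0064. Deviations within a group cancel out, so the negative values follow in part from the positive ones and are no separate evidence. On the same-number values, the replicate number was treated as pairing the samples. A fit with it as a block was run beside the main one. Pairs of subunits were compared by exact permutation tests (scipy 1.17.1). Intervals for pairs are 95% intervals of the unpaired mean difference unless said to be paired. No other scaling between samples was applied in the main fit. Alternatives were no filter, a pseudocount of 0.1, quantile normalization, the block and each sample left out. The code was tested on simulated data.

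The members and gene lists were chosen with earlier results of these data known. Genes named were all members, NT5E, from each list those past p below 0.01 or otherwise the 2 of highest mean, and the 5 most like ITGA2. Exons of 5 members (ITGA5, ITGA6, ITGAV, ITGB1 and ITGB8) overlapped an exon of a gene on the other strand over at most 2.66% of their length, with that gene at or below 0.836 RPKM. ITGB6 shared 966 bases (20.6% of its length) with AC092153.1 on its own strand, whose values are not analysed here. CD3E and DCN, listed as markers, were not used here. Sequences came from GENCODE 29 and from RefSeq windows of GRCh38.p14. The values of 1 listed gene are not reported here.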

Additional observations from a re-analysis of the deposited data

How the results depend on the processing

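The difference in ITGA2 kept its direction under all 10 alternatives, from -1.55 to -0.96 on the log2 scale, with limma p from 0.0013 to 0.016 and adjusted p from 0.10 to 0.75, and it was past 0.01 in 6 of them. With no filter on low values its limma p was 0.014, so the number of members called moved from 1 to 0. Leaving out 1 sample gave between 0 and 2 called members, with 0 without CD73 siRNA replicate 1, negative control replicate 1 or negative control replicate 3, and 2 without negative control replicate 2. The count of all genes past 0.01 was 948 with the replicate block against 392 without, and leaving out 1 sample gave between 116 and 792 (without CD73 siRNA replicate 1 for the lowest, negative control replicate 2 for the highest). It was 188 without negative control replicate 1 and 258 without negative control replicate 3. The adhesion lists had 4 calls with the replicate block against 1. The block changed no other call at 0.01, and pairing by replicate number left no pair of subunits with an interval on one side of 0. ITGA6, with a range from -0.064 to 0.20 when 1 sample was left out, turned to -0.039 without CD73 siRNA replicate 3 and to -0.064 without replicate 2 of the controls. ITGB4 (range -0.22 to 0.17) turned to 0.17, 0.11 and 0.03 without CD73 siRNA replicate 3, negative control replicate 1 and negative control replicate 2, and the pair of ITGB4 and ITGA6 (range -0.42 to 0.21) turned to 0.21, 0.08 and 0.10 in the same order. In all, 81 of 91 member fold changes kept their direction and their side of the 0.01 threshold. Of 80 pair differences, 77 kept their direction, with neither size nor p considered. Of 23 counts, 12 stayed within a factor of 1.5 of the main count. The cause of the other shifts was not tested. The alternative with ITGB1P1 reads added was chosen after seeing the data. ITGB6, at 2 reads or fewer per sample, was below what this depth can measure.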
